A study of Mus musculus with 79 samples.

Results

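The enzymes that make and break down prostaglandins and leukotrienes were followed in the lungs of mice exposed to cigarette smoke. The set was named as 10 genes, Pla2g4a, Ptgs1, Ptgs2, Ptges, Ptgis, Ptgds, Hpgd, Alox5, Alox12 and Alox15, and an array entry was taken for each through the study's gene tables or RefSeq, with the highest mean where a symbol had several. This gave 8 measured enzymes among the 31350 entries of the array. No entry mapped to Ptges or Alox12 by this rule, and both were not analysed here. Total RNA from the whole right lung of 79 mice was measured on 1 Affymetrix moGene2.1 array per mouse. The mice were WT or βENaC littermates of matched sex, 5 to 7 weeks old, on a C57BL/6J background. βENaC mice carry a transgene that overexpresses Scnn1b, a subunit of the epithelial sodium channel, in airway epithelium, and their airways hold dehydrated mucus and chronic inflammation. Smoke mice breathed mainstream and side-stream smoke of 6 reference cigarettes a day, sham mice breathed room air in the same chamber, and lungs were taken 4 hours after the last exposure. Males and females were studied after 1 day (20 smoke and 20 sham mice) and after 5 days (19 smoke and 20 sham mice), which made 16 groups of 4 to 6 mice.

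Arachidonic acid is cut from membrane phospholipids by phospholipases, chiefly the cytosolic enzyme encoded by Pla2g4a. The cyclooxygenases Ptgs1, mostly constitutive, and Ptgs2, which is inducible, turn it into an unstable prostaglandin, and terminal synthases such as Ptgis (prostacyclin) and Ptgds (prostaglandin D) make the final products. Hpgd is the dehydrogenase that begins the inactivation of prostaglandins, for which the lung is a main site. The lipoxygenase Alox5 begins the synthesis of leukotrienes and Alox15 makes other hydroxylated lipids. Prostaglandins and leukotrienes regulate airway tone, blood flow and the recruitment of leukocytes.

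The promoters of Ptgs2 and Hpgd are shown because both transcripts were higher in smoke mice and lower in βENaC mice, and that of Ptgs1 because it encodes the other cyclooxygenase. RefSeq's promoter table (GRCm38.p6) held 8 of the 10 genes. The 250 bases before and 30 bases after the gene start listed there are given on the plus strand, which is the strand of all 3 genes: Ptgs2 at chr1:150099781-150100060, Hpgd at chr8:56294302-56294581 and Ptgs1 at chr2:36230176-36230455, where the listed start lies inside the annotated gene (chr2:36216742-36258593). Capitals mark matches on either strand to 6 short motifs. They were the TATA box (TATAAA), the core of the cyclic AMP response element (ACGTCA), the E-box (CACGTG), the core of the aryl hydrocarbon receptor element (GCGTG), the C/EBP palindrome (TTGCGCAA) and the core of the NRF2 element (TGACNNNGC).
Ptgs2: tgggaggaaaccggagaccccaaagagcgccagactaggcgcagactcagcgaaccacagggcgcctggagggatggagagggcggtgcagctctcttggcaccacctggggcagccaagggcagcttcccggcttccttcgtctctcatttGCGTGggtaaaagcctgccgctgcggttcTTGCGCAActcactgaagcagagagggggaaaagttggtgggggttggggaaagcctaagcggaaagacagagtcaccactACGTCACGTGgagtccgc
Hpgd: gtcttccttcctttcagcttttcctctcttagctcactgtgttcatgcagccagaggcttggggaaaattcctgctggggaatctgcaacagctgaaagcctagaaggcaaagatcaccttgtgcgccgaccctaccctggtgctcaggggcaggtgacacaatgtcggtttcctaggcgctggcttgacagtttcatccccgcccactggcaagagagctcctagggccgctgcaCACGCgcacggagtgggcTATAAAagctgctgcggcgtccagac
Ptgs1: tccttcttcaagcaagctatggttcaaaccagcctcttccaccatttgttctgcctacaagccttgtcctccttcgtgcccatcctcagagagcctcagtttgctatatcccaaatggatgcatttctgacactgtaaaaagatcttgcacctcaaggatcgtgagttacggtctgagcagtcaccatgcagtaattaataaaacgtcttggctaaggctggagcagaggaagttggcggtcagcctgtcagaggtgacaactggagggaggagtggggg
The Ptgs2 promoter held the aryl hydrocarbon receptor core, the C/EBP palindrome, the cyclic AMP core and the E-box. The last 2 overlapped just after the listed gene start. The listed starts of the 3 genes were not checked against measured starts of transcription, so motif positions are relative to the listing only. Of 32851 promoter stretches of this length, 30.8% held the aryl hydrocarbon receptor core, 7.26% the cyclic AMP core, 6.79% the E-box and 0.18% the C/EBP palindrome. The Hpgd promoter held the aryl hydrocarbon receptor core and the TATA box, the latter in 13.1% of the stretches. The stretch of Ptgs1 held none of the 6 motifs, and the NRF2 core, present in 11.5% of the stretches, was in none of the promoters of the 8 genes. A match describes letters only and not binding.

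The arrays had medians between 4.44 and 4.55 on the log2 scale, and their number limits the precision. Scnn1b was at 8.98 ± 0.21 (SD, n = 40) in WT and 11.69 ± 0.10 (SD, n = 39) in βENaC mice, without overlap. The source names of 13 WT smoke mice called them βENaC, against their titles and genotype entries, which were followed here. A βENaC female smoke mouse of 5 days (replicate 3) lay apart from the other 4 mice of its group in several enzymes. Its Alox15 value was 8.42 against 6.04 to 6.54 and its Hpgd value 11.23 against 11.91 to 11.99, while its eosinophil markers averaged 5.55 against 4.05 to 4.21 and its alveolar macrophage markers 10.10 against 8.48 to 9.19. The exposure and genotype calls of 5 days and the relations between mice were repeated without it. Among the enzymes, Hpgd had a mean of 11.87, higher than 99.8% of all entries, and Ptgs1 a mean of 9.22. Ptgds had a mean of 3.48, higher than 33.1% of all entries, and its values ran only from 3.21 to 4.09.

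Smoke raised Ptgs2 and Hpgd at both durations, and at 1 day it also raised Ptgs1 and lowered Alox5. With limma (terms for exposure, genotype and sex, Benjamini-Hochberg adjustment over all entries, called at an adjusted p below 0.05), 4 of the 8 enzymes were called for exposure at 1 day, 3 higher and 1 lower, where 9.45% of all entries were called. At 5 days 2 of the 8 were called, both higher, against 6.53% of all entries. The median exposure coefficient was 0.03 over the enzymes and 0.01 over all entries at 1 day. With the additional requirement of a 1.3-fold change, Ptgs2 alone was called at both durations, against 1.08% of all entries at 1 day and 1.16% at 5 days. In lung homogenate, fewer cells of a type and less RNA per cell cannot be told apart, and this holds for every difference given here.

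**Figure D1:**
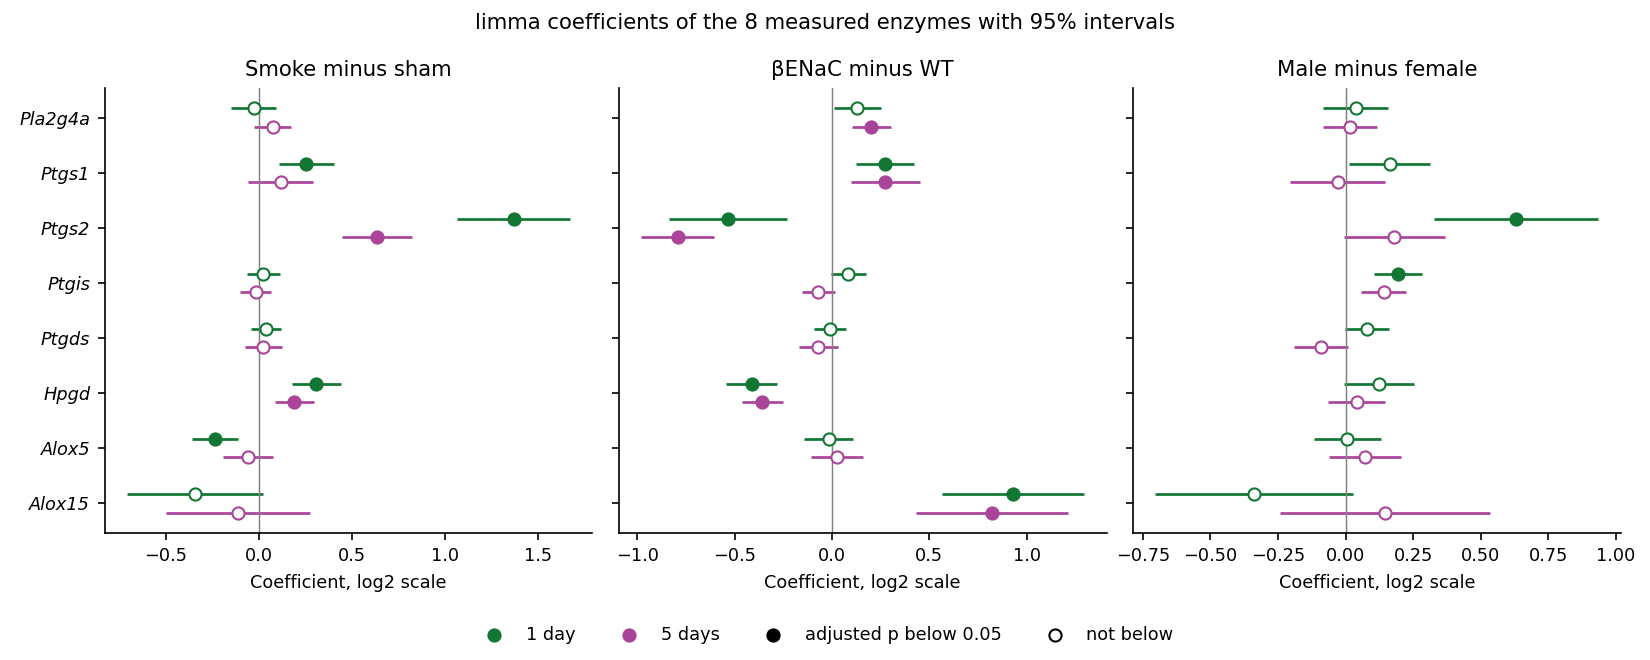
limma coefficients (points) with 95% intervals (lines) on the log2 scale for the 8 measured enzymes at 1 day and 5 days, for smoke minus sham, βENaC minus WT and male minus female, with filled points at an adjusted p below 0.05. The exposure coefficient of Ptgs2 was 1.37 at 1 day and 0.64 at 5 days, and its genotype coefficient was negative at both.

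Ptgs2 (NM_011198, chromosome 1) showed the largest response to smoke among the 8 enzymes. After 1 day the WT females had values of 7.03, 7.15, 7.16, 7.26 and 7.31 after sham and 8.24, 8.37, 8.59, 8.62 and 8.74 after smoke. The WT males had 7.37, 7.38, 7.50, 7.86 and 7.86 after sham and 8.72, 8.79, 9.47, 9.48 and 9.53 after smoke. In both, every smoke mouse was above every sham mouse. The βENaC females had 6.56, 6.66, 6.78, 6.93 and 7.41 after sham and 7.03, 7.14, 7.71, 7.83 and 8.25 after smoke, and 3 of the 5 smoke mice were above the highest sham mouse. The βENaC males had 6.33, 6.58, 6.73, 7.51 and 8.02 after sham and 7.54, 8.77, 9.0, 9.42 and 9.54 after smoke, with 1 smoke mouse inside the sham range. All 20 smoke mice lay above the sham mean of their own genotype and sex. The coefficient was 1.37 (SE 0.15, limma adjusted p = 2.09e-08), a 2.58-fold higher level. Within the 4 groups of genotype and sex, the mean differences ranged from 0.72 in βENaC females to 1.82 in βENaC males.

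**Figure D2:**
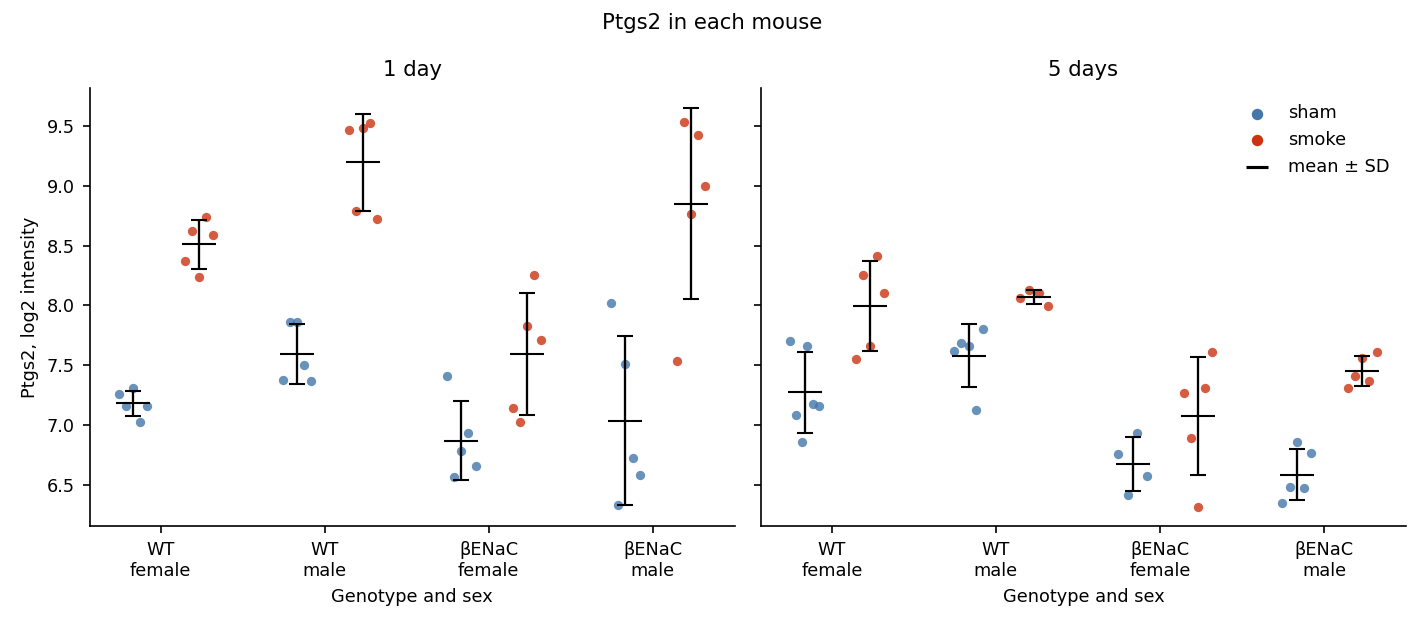
Ptgs2 log2 intensity of every mouse (points) at 1 day and 5 days by genotype and sex, with the mean ± SD of each group of sham and smoke mice. Smoke means were above sham means in all 8 pairs, and the βENaC sham mice of 5 days had the 2 lowest means (6.58 in males and 6.67 in females).

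After 5 days the response of Ptgs2 was smaller in size. The WT females had 6.86, 7.17 and 7.70 as lowest, median and highest of 6 sham mice, and 7.55, 7.66, 8.11, 8.26 and 8.41 after smoke. The WT males had 7.12, 7.62, 7.66, 7.68 and 7.80 after sham and 7.99, 8.06, 8.10 and 8.13 after smoke. The males did not overlap, and 3 of 5 smoke females were above all sham females. The βENaC females had 6.41, 6.58, 6.76 and 6.93 after sham and 6.32, 6.89, 7.26, 7.31 and 7.61 after smoke, the lowest smoke value being that of the mouse that lay apart. The βENaC males had 6.35, 6.48, 6.48, 6.76 and 6.85 after sham and 7.31, 7.37, 7.41, 7.56 and 7.61 after smoke, without overlap. The coefficient was 0.64 (SE 0.09, limma adjusted p = 7.78e-06), a 1.55-fold higher level, and 18 of 19 smoke mice exceeded the sham mean of their own genotype and sex. Without the mouse that lay apart it was 0.68 (limma adjusted p = 2.19e-07).

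The change in the smoke response of Ptgs2 between durations was -0.80 (SE 0.25, 95% interval -1.31 to -0.29). It was not called in the limma fit of exposure and duration over all mice (adjusted p = 0.13), where 0 of the 8 enzymes and 0.612% of all entries were called. At an unadjusted p below 0.05, 2 of the 8 enzymes passed, Ptgs2 and Alox5, beside 3467 of all 31350 entries. The ordinary linear model also called 0 of the enzymes. The call was made in 3 of the alternatives, with genotype and sex added to the fit (-0.74, limma adjusted p = 0.025), with array weights (-0.92, limma adjusted p = 0.035) and with adjustment over the exposure-response genes alone (limma adjusted p = 0.013). The exposure-response genes were selected by their smoke effect in these same arrays, so the last of these is no independent support.

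Over the 16 groups, the mean level of Ptgs2 ran in order from βENaC sham males of 5 days (6.58 ± 0.21, SD, n = 5) to WT smoke males of 1 day (9.20 ± 0.41, SD, n = 5). The 4 lowest means were those of the 4 βENaC sham groups, and they differed by less than the largest SD among them (0.71). The 5 highest were smoke groups, 4 of them WT, and the only βENaC group among them was that of males after 1 day (8.85 ± 0.80, SD, n = 5). Most neighbours in the order differed by less than their SD, such as WT sham males of 1 day (7.59 ± 0.25, SD, n = 5) and βENaC smoke females of 1 day (7.59 ± 0.51, SD, n = 5).

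The 5 genes whose pattern over the 79 mice was most like that of Ptgs2, by Pearson correlation of log2 intensity, were Gm3776 (r = 0.85), Osgin1 (r = 0.85), Shh (r = 0.79), Gclm (r = 0.79) and Srxn1 (r = 0.78). Smoke and sham mice and both genotypes were pooled, so these values describe shared differences between groups as well as between mice, and no test was made. The coefficients that follow are given as a description for the same reason. Gclm, the modifier subunit of the enzyme that starts glutathione synthesis, had exposure coefficients of 1.20 at 1 day and 0.79 at 5 days. Srxn1, sulfiredoxin, had 1.35 and 0.60. Osgin1, an oxidative stress response gene, had 1.03 and 0.60, and Shh, the sonic hedgehog ligand, had 0.77 and 0.33. Gm3776 had 1.846 and 1.055. Of these 5 genes, Gm3776, Osgin1, Gclm and Srxn1 had a promoter in the table and Shh had none. All 4 held the letters of the aryl hydrocarbon receptor core, found in 30.8% of all promoter stretches. Of them 1, Gclm, held those of the NRF2 core, found in 11.5%.

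Hpgd (NM_008278, chromosome 8) rose with smoke at both durations. At 1 day its lowest, median and highest values were 10.82, 11.74 and 12.10 in sham and 11.59, 12.07 and 12.24 in smoke mice. All 20 smoke mice were above the sham mean of their own genotype and sex, and in WT females and in WT males the groups did not overlap. The coefficient was 0.31 (SE 0.06, limma adjusted p = 0.00102), a 1.24-fold higher level. At 5 days the values were 11.15, 11.89 and 12.18 in sham and 11.23, 12.00 and 12.16 in smoke mice, with a coefficient of 0.19 (SE 0.05, limma adjusted p = 0.0168), or 0.22 without the mouse that lay apart (limma adjusted p = 0.000433). In the 9 WT smoke mice of 5 days Hpgd spanned only 12.08 to 12.16, close to the 12.03 ± 0.09 (SD, n = 11) of WT sham mice. These values lie near the top of the intensity range, where the highest value of any entry was 13.41. Whether this narrowed their spread or the WT response was not tested. In βENaC mice of 5 days Hpgd was 11.57 ± 0.18 (SD, n = 9) after sham and 11.87 ± 0.23 (SD, n = 10) after smoke. The endothelial markers called for exposure were Cdh5 at 1 day (0.14) and Pecam1 and Cldn5 at 5 days (-0.11 and -0.15). The alveolar epithelial markers called were Lamp3 at 1 day (-0.09) and Lamp3 and Abca3 at 5 days (-0.15 and -0.15). The part of these cells in the Hpgd response was not tested.

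Ptgs1 (NM_008969, chromosome 2), the constitutive cyclooxygenase, was 8.55, 9.05 and 10.20 (lowest, median, highest) in sham and 8.96, 9.35 and 9.85 in smoke mice at 1 day. The coefficient was 0.26 (SE 0.07, limma adjusted p = 0.0197), and 17 of 20 smoke mice were above the sham mean of their own genotype and sex. At 5 days the coefficient of 0.12 (SE 0.09) was not called (limma adjusted p = 0.53). A low-intensity entry of the same symbol (XM_006497790, mean 3.48) had a coefficient of -0.07 at 1 day and was not called, so the result rests on the brighter entry.

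Alox5 (NM_009662, chromosome 6), the lipoxygenase of leukotriene synthesis, fell at 1 day. Its lowest, median and highest values were 7.05, 7.24 and 7.80 in sham and 6.70, 7.07 and 7.59 in smoke mice, and 10 of the 20 smoke mice were below every sham mouse. The coefficient was -0.24 (SE 0.06, limma adjusted p = 0.0087), a 1.18-fold lower level, with lower smoke means in all 4 groups of genotype and sex. At 5 days it was -0.06 (SE 0.07, limma adjusted p = 0.73). Beside it, eosinophil markers averaged 4.15 to 5.50 in sham and 3.81 to 5.03 in smoke mice of 1 day (0 of 5 called by limma, 2 with an unadjusted p below 0.05), and monocyte markers 6.87 to 8.72 and 6.79 to 7.72 (2 of 6 lower, Ly6c2 and Plac8). Neutrophil markers averaged 6.41 to 9.13 in sham and 6.41 to 8.21 in smoke mice (1 of 6 lower, Retnlg, -0.66), and of 8 mast cell and basophil markers 1, Hdc, was lower (-0.57). At 5 days, where Alox5 was not called, 3 of 5 eosinophil markers (Siglecf, Ccr3 and Il5ra), 3 of 6 monocyte markers (Ccr2, Plac8 and Cx3cr1) and Hdc (-0.85) were lower in smoke mice. Of the 6 neutrophil markers 0 were called by limma at 5 days, and 2 (Retnlg and Csf3r, lower in value) had an unadjusted p below 0.05. The part of these cells in the lower Alox5 of 1 day was not tested. Over all entries 9.45% were called for exposure at 1 day and 6.53% at 5 days.

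The other 4 enzymes were not called for exposure at either duration. The phospholipase Pla2g4a (NM_008869), the protein-coding neighbour of Ptgs2 on chromosome 1, had coefficients of -0.03 (95% interval -0.15 to 0.09) and 0.08 (95% interval -0.02 to 0.17). Prostacyclin synthase, Ptgis (NM_008968, chromosome 2), had 0.03 (SE 0.04) and -0.02 (SE 0.04), and prostaglandin D synthase, Ptgds (NM_008963, chromosome 2), had 0.04 (SE 0.04) and 0.02 (SE 0.05). Alox15 (NM_009660, chromosome 11) had -0.34 (SE 0.18, limma adjusted p = 0.28) and -0.11, with intervals that reach from -0.71 to 0.02 at 1 day.

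When smoke and sham mice were compared within each genotype, sex and duration, 22 of 64 exact two-sided permutation tests had an unadjusted p below 0.05 and 0 passed the Benjamini-Hochberg adjustment. The lowest adjusted value was 0.0847. The smallest p a test could reach was between 0.00433 and 0.0159 because of the group sizes, and 8 of the tests were at it. Ptgs2 made up 7 of the 22 tests, Hpgd and Ptgs1 5 each, Alox5 2, and Pla2g4a, Ptgis and Alox15 1 each.

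Of 49 further measured genes of the pathway, grouped by role, 10 were called for exposure at 1 day (6 higher, 4 lower) and 9 at 5 days (5 higher, 4 lower). Over all entries the shares called were 9.45% at 1 day and 6.53% at 5 days. The carbonyl reductase Cbr1, which reduces prostaglandins, was higher at both durations (0.24 and 0.32, limma adjusted p = 8.89e-05 and 1.43e-06), as was the phospholipase Pla2g12a (0.18 and 0.31, limma adjusted p = 0.00414 and 2.99e-05). Another phospholipase, Pla2g4b, was higher at 1 day (0.19, limma adjusted p = 0.0124). The prostaglandin exporter Abcc4 was higher at 1 day (0.28, limma adjusted p = 0.00889). Of 8 prostanoid receptors, Ptger3 fell at 1 day (-0.40, limma adjusted p = 0.0171) and Ptger1, Ptger4 and Tbxa2r fell at 5 days (-0.34, -0.22 and -0.23). Of 9 genes of leukotriene synthesis and breakdown, 1 rose and 2 fell at 1 day, with a list median of 0.09. Alox5ap, the activating protein of Alox5, fell at 1 day (-0.27, limma adjusted p = 0.029), together with Cyp4f18, a leukotriene hydroxylase of myeloid cells (-0.60, limma adjusted p = 0.00414), and Ggt1, a transpeptidase that trims cysteinyl leukotrienes, rose (0.16, limma adjusted p = 0.0385). The cysteinyl leukotriene receptor Cysltr1 fell at both durations (-0.23 and -0.20, limma adjusted p = 0.0134 and 0.0272), and Cysltr2 rose at 1 day (0.21, limma adjusted p = 0.029). At 5 days Dpep1, Mgst2 and Mgst3 rose (0.29, 0.23 and 0.20). None of the 4 other lipoxygenases or the 5 epoxide genes was called at either duration. Ptger3 and Cyp4f18 at 1 day were the only ones of these past 1.3-fold.

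Ptgs2 is also an immediate early gene. Of 9 such genes, Ier3 rose and Nr4a1 fell with smoke at 1 day, and at 5 days 5 fell (Fos, Egr1, Junb, Ier2 and Nr4a1, coefficients -0.70 to -0.30) while Ier3 rose (0.28, limma adjusted p = 0.000842). The list as a whole had a median coefficient of -0.23 at 1 day and -0.31 at 5 days, against 1.37 and 0.64 for Ptgs2. Over all entries 9.45% were called for exposure at 1 day and 6.53% at 5 days.

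βENaC mice differed from WT mice in Ptgs2 and Hpgd, which were lower, and in Alox15 and Ptgs1, which were higher, at both durations. For genotype, 4 of the 8 enzymes were called at 1 day, 2 in each direction, against 5.87% of all entries, and 5 of the 8 at 5 days, 3 higher and 2 lower, against 10.2%. With the 1.3-fold requirement 3 were called at 1 day (Ptgs2, Hpgd and Alox15; 1.55% of all entries) and 2 at 5 days (Ptgs2 and Alox15; 2.53% of all entries). The median genotype coefficient was 0.04 over the enzymes and 0.00 over all entries at 1 day, and -0.02 and -0.01 at 5 days.

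Alox15 had the largest genotype coefficient of the 8 enzymes at both durations, though at 5 days Ptgs2 was larger in size (-0.74 against 0.72) without the mouse that lay apart. At 1 day its lowest, median and highest values were 5.08, 5.93 and 6.97 in WT and 5.95, 6.88 and 8.30 in βENaC mice, and 10 of 20 βENaC mice were above every WT mouse. The coefficient was 0.93 (SE 0.18, limma adjusted p = 0.000695), a 1.90-fold higher level. At 5 days the values were 4.99, 5.98 and 7.22 in WT and 6.04, 6.61 and 8.42 in βENaC mice. The coefficient was 0.82 (SE 0.19, limma adjusted p = 0.00332), all 19 βENaC mice were above the WT mean of their own sex and exposure, and leaving out the mouse that lay apart gave 0.72 (limma adjusted p = 0.00476). Its neighbour on chromosome 11, Alox12e, another lipoxygenase, was higher by 0.25 and 0.41 in βENaC mice (limma adjusted p = 0.0014 and 7.82e-08).

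**Figure D3:**
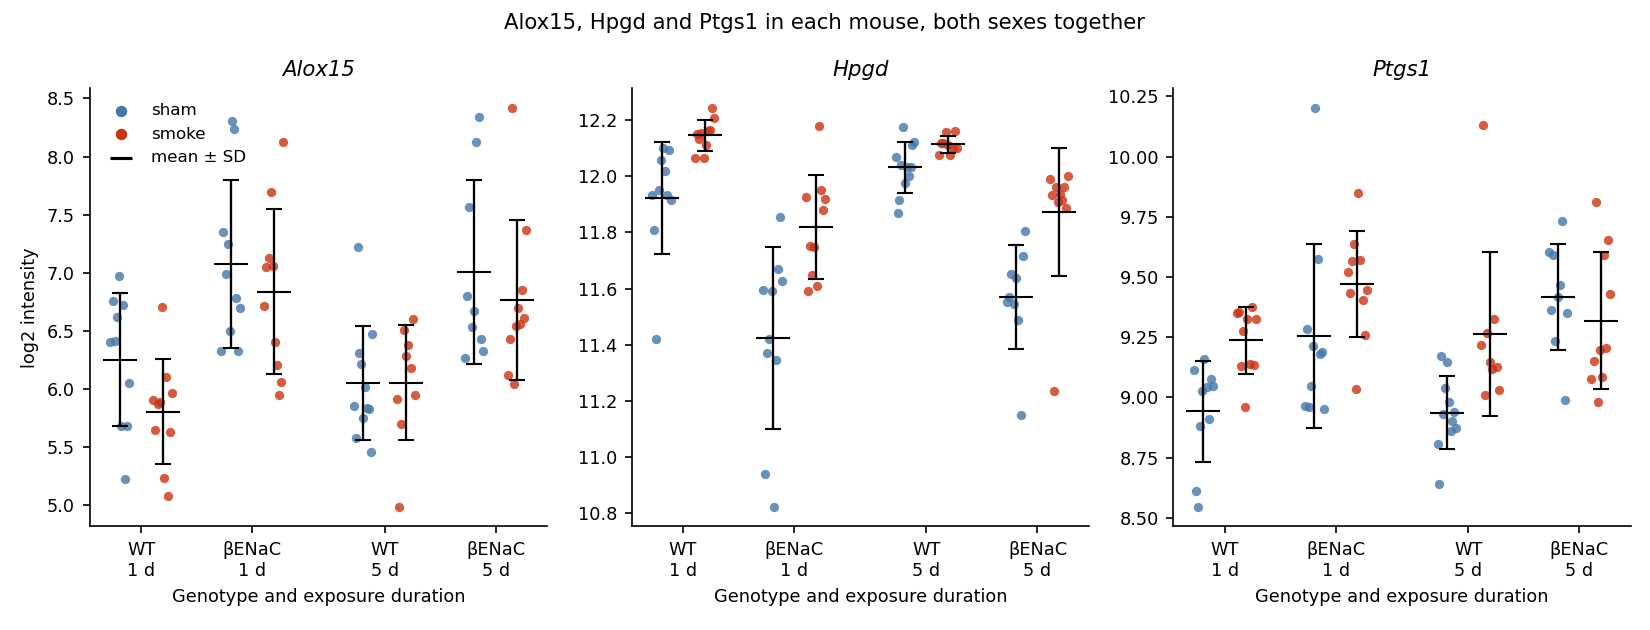
Log2 intensity of Alox15, Hpgd and Ptgs1 in every mouse (points) by genotype and duration, with both sexes together and the mean ± SD of sham and smoke mice. Alox15 and Ptgs1 were higher and Hpgd lower in βENaC mice, and Hpgd in WT smoke mice of 5 days spanned only 12.08 to 12.16.

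Hpgd was 12.03 ± 0.18 (SD, n = 20) in WT and 11.62 ± 0.33 (SD, n = 20) in βENaC mice at 1 day, and limma put the difference at -0.41 (SE 0.06, adjusted p = 3.19e-05). At 5 days it was 12.07 ± 0.08 (SD, n = 20) and 11.73 ± 0.26 (SD, n = 19), for which limma gave -0.36 (SE 0.05, adjusted p = 4.74e-06). At 5 days the genotypes did not overlap in any of the 4 groups of sex and exposure, and 10 of 19 βENaC mice were below every WT mouse. Without the mouse that lay apart the Hpgd coefficient was -0.32 (limma adjusted p = 8.61e-07). Ptgs2 was 8.12 ± 0.84 (SD, n = 20) in WT and 7.59 ± 0.98 (SD, n = 20) in βENaC mice at 1 day, and limma put this difference at -0.53 (SE 0.15, adjusted p = 0.0239). At 5 days it was 7.69 ± 0.43 (SD, n = 20) and 6.96 ± 0.45 (SD, n = 19), for which limma gave -0.79 (SE 0.09, adjusted p = 7.32e-08) or a 1.73-fold lower level. Each of the 19 βENaC mice of 5 days had less Ptgs2 than the WT mean of its own sex and exposure. At 5 days the βENaC smoke mice (7.26 ± 0.39, SD, n = 10) were near the WT sham mice (7.41 ± 0.33, SD, n = 11).

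Ptgs1 was higher in βENaC mice by 0.27 at both durations (SE 0.07 and 0.09, limma adjusted p = 0.0161 and 0.034). Its lowest, median and highest values were 8.55, 9.12 and 9.38 in WT and 8.95, 9.34 and 10.20 in βENaC mice at 1 day, and 10 of 20 βENaC mice were above every WT mouse. At 5 days they were 8.64, 9.03 and 10.13 in WT and 8.98, 9.36 and 9.81 in βENaC mice. In 2 of the 4 groups of sex and exposure, both of them sham, every βENaC mouse was above every WT mouse. In smoke mice of 5 days the means were 9.24 in βENaC and 9.35 in WT females, and 9.39 and 9.15 in males. The call at 5 days was lost when any of 6 single mice was left out (limma adjusted p = 0.0502 to 0.0623), among them the mouse that lay apart (0.0615). The dimmer Ptgs1 entry had coefficients of 0.06 and -0.06 and was not called. Pla2g4a was higher by 0.20 at 5 days (SE 0.05, limma adjusted p = 0.0046), where 18 of 19 βENaC mice were above the WT mean of their own sex and exposure, and by 0.18 without the mouse that lay apart (limma adjusted p = 0.00771). Its coefficient at 1 day was 0.13 (SE 0.06) and was not called. Alox5, Ptgis and Ptgds were not called for genotype at either duration.

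Markers of other cells moved with genotype, for which 5.87% of all entries were called at 1 day and 10.2% at 5 days. Of 6 alveolar macrophage markers, 4 were higher in βENaC mice at 1 day and 6 at 5 days, and their mean level per mouse was 8.23 to 8.75 in WT and 8.28 to 9.86 in βENaC mice at 1 day, and 8.39 to 9.03 and 8.48 to 10.10 at 5 days. Of 6 endothelial markers, 4 were lower at each duration, with a mean level of 10.20 to 10.48 in WT and 9.96 to 10.40 in βENaC mice at 1 day and 10.11 to 10.51 and 9.89 to 10.42 at 5 days. Of 6 airway epithelial markers, 2 were higher (the mucins Muc5ac and Muc5b, 1.12 and 0.82 at 1 day and 1.51 and 0.78 at 5 days) and 2 lower (the club cell genes Cyp2f2, -0.29 and -0.39, and Scgb1a1, -0.06 and -0.07). Of 6 alveolar epithelial markers, 2 were higher (Lamp3 and Slc34a2) and 1 lower (Hopx, -0.23) at 1 day, and 3 higher (with Abca3) and 2 lower (Hopx, -0.29, and Ager, -0.12) at 5 days, with a mean level of 10.89 to 11.10 in WT and 10.90 to 11.10 in βENaC mice at 1 day and 10.96 to 11.12 and 10.91 to 11.11 at 5 days. Of 5 smooth muscle markers, Cnn1 was lower at both durations (-0.44 and -0.61) and Des at 5 days (-0.27). At 1 day the platelet marker Ppbp was lower (-0.51) and the mesothelial marker Msln higher (0.47), and at 5 days Hdc was higher (0.40). Of 6 monocyte and 6 neutrophil markers, 0 were called by limma at either duration, and 3 monocyte markers of 5 days had an unadjusted p below 0.05. Of 5 eosinophil markers 0 were called by limma at either duration, with 2 (Ccr3 and Prg2, higher in value) at an unadjusted p below 0.05 at each. No marker was at 0, since array values have no zero. The part of these cells in the differences of Alox15, Ptgs1, Pla2g4a and Hpgd between genotypes was not tested.

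Of the 49 further pathway genes, 9 were called for genotype at 1 day (8 higher in βENaC mice, 1 lower) and 18 at 5 days (12 higher, 6 lower). Over all entries the shares called were 5.87% at 1 day and 10.2% at 5 days. The prostacyclin receptor Ptgir was higher by 0.70 and 1.16 (limma adjusted p = 0.000418 and 2.56e-07), while Ptgis, which makes its ligand, had 0.08 and -0.07 and was not called. The hematopoietic prostaglandin D synthase Hpgds was higher by 0.73 and 0.76 (limma adjusted p = 0.000136 and 4.31e-07), while the other prostaglandin D synthase, Ptgds, had coefficients of -0.01 and -0.07 and was not called. Akr1c18, a reductase of steroids and prostaglandins, was lower by 0.37 and 0.89 on the log2 scale, with coefficients of -0.37 and -0.89 (limma adjusted p = 0.00976 and 0.000161). Of the genes that release arachidonic acid or its precursors, Pla2g15, Pla2g4f and Mgll were higher at both durations (0.30, 0.21 and 0.32 at 1 day, and 0.35, 0.44 and 0.36 at 5 days), and Pla2g4c (0.48, limma adjusted p = 0.0015) and Pla2g6 (0.14) at 5 days. The amide hydrolase Faah was lower at 5 days (-0.15, limma adjusted p = 0.0176). Among the other prostanoid receptors, Ptger2 was higher at 1 day (0.21) and Ptger1 and Ptger4 at 5 days (0.21 and 0.32). The transporter Slco2a1, which takes prostaglandins up for breakdown, was lower at 5 days (-0.11, limma adjusted p = 0.0155) as was the reductase Ptgr1 (-0.10, limma adjusted p = 0.0453), and the exporter Abcc4 was higher (0.19, limma adjusted p = 0.00985). The epoxide hydrolase Ephx1 was lower at 5 days (-0.18, limma adjusted p = 0.00829). In the leukotriene branch Alox5ap was higher (0.23, limma adjusted p = 0.00336) and Dpep1 lower (-0.21, limma adjusted p = 0.0204) at 5 days, and Cysltr1 was higher at 1 day (0.27, limma adjusted p = 0.00385), whereas Alox5 itself had genotype coefficients of -0.02 and 0.03.

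Males had more Ptgs2 and Ptgis than females after 1 day. For sex, 2 of the 8 enzymes were called at 1 day, both higher in males, against 9.89% of all entries, and 0 at 5 days by limma, against 0.616%. At 5 days 1 enzyme, Ptgis, had an unadjusted p below 0.05, beside 3555 of all 31350 entries. The ordinary linear model called 0 of the enzymes. Ptgs2 at 1 day was 7.54 ± 0.70 (SD, n = 20) in females and 8.17 ± 1.06 (SD, n = 20) in males, higher by 0.63 in the limma fit (SE 0.15, adjusted p = 0.00416). At 5 days it was 7.28 ± 0.59 (SD, n = 20) and 7.39 ± 0.57 (SD, n = 19), with 0.18 in the limma fit (adjusted p = 0.46). Ptgis was 7.73 ± 0.18 (SD, n = 20) in females and 7.92 ± 0.10 (SD, n = 20) in males at 1 day, higher by 0.19 in the limma fit (SE 0.04, adjusted p = 0.00266), and 19 of 20 males were above the female mean of their own genotype and exposure. At 5 days its coefficient was 0.14 (SE 0.04, limma adjusted p = 0.11), and 18 of 19 males were above. Beside these, 4 of 9 immediate early genes (Fos, Junb, Ier2 and Ier3) and 5 of 6 platelet markers were higher in males at 1 day. Immediate early genes averaged 7.32 to 8.08 in females and 7.45 to 8.59 in males, and platelet markers 4.89 to 6.02 and 5.52 to 6.19. At 5 days 4 of 6 platelet markers and 0 of 9 immediate early genes were higher in males. Their part in the sex differences was not tested.

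Whether the response to smoke differed between genotypes or sexes was tested with both interaction terms together. By limma's moderated F-test 0 of the 8 enzymes were called at 1 day, where 0.00638% of all entries were called, and 0 at 5 days, where 0% were. At an unadjusted p below 0.05, 0 enzymes passed at 1 day and 1, Ptgs1, at 5 days. Of all 31350 entries, 2275 passed at 1 day and 1084 at 5 days. The ordinary linear model called 0 of the enzymes at both. Taken singly, the exposure-by-genotype term had an unadjusted p below 0.05 in 1 enzyme at 1 day (Ptgis) and in 3 at 5 days (Ptgs1, Ptgds and Hpgd). The exposure-by-sex term had it in 1 at 1 day (Ptgs2) and 0 at 5 days. No count over all entries is given for the single terms, so these numbers have no background beside them. For Ptgs2 at 1 day, the smoke response of males exceeded that of females by 0.68 (SE 0.29, 95% interval 0.10 to 1.26, limma adjusted p = 0.75), and the response of βENaC mice was smaller than that of WT mice by 0.20 with an interval of -0.78 to 0.38. For Hpgd at 5 days the response of βENaC minus WT mice was 0.22 (SE 0.10, 95% interval 0.02 to 0.42, limma adjusted p = 1.00). For Ptgs1 at 5 days it was -0.43 (SE 0.16, 95% interval -0.76 to -0.10, limma adjusted p = 1.00). WT smoke mice were at 9.26 ± 0.34 (SD, n = 9) and WT sham mice at 8.94 ± 0.15 (SD, n = 11), whereas βENaC mice were at 9.32 ± 0.28 (SD, n = 10) and 9.42 ± 0.22 (SD, n = 9).

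Differences between mice of the same group were compared across enzymes, as deviations from the mean of each of the 16 groups. Of 28 pairs, 4 passed permutation tests of both Pearson's r and Spearman's rho with Benjamini-Hochberg adjustment over the pairs. Pla2g4a, Alox5 and Alox15 varied together. Pla2g4a and Alox5 had r = 0.61 and rho = 0.57 (permutation p = 1e-05 for both, the smallest the permutations can give, adjusted 0.00014, n = 79). Pla2g4a and Alox15 had r = 0.61 and rho = 0.55 (permutation p = 1e-05, adjusted 0.00014), and Alox5 and Alox15 r = 0.62 and rho = 0.50 (permutation p = 8e-05 and 0.00014, adjusted 0.000747 and 0.00131). Without the 2 mice farthest from the median of the first enzyme, these were 0.56, 0.56 and 0.51. Hpgd and Alox15 varied in opposite directions, with r = -0.51 and rho = -0.39 (permutation p = 0.00116 and 0.004, adjusted 0.0065 and 0.028), and -0.38 without the 2 farthest mice. Without the mouse that lay apart this pair had r = -0.42 and no longer passed both tests, while the other 3 pairs did. Ptgs2 passed with none of the other 7 enzymes, with r between -0.05 and 0.19.

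The same deviations were set against the mean of each of 12 marker lists and the immediate early genes, a comparison added after the values were seen, and 23 of 104 relations passed both adjusted tests. Alox5 and Alox15 followed the eosinophil markers (r = 0.71 and 0.69, rho = 0.56 and 0.53, permutation p of r = 1e-05 and 3e-05, adjusted 0.000208 and 0.000446, n = 79). Without the 2 farthest mice these were 0.63 and 0.59. The defining granule genes Epx and Prg2 had means of 2.76 and 3.22, near the low end of the range, while Siglecf, which alveolar macrophages also express, was at 6.02. Neither relation was limited to eosinophil markers. Alox5 also followed the alveolar macrophage, neutrophil and monocyte markers (r = 0.52, 0.43 and 0.33, rho = 0.50, 0.45 and 0.32). Alox15 also followed the alveolar macrophage and monocyte markers (r = 0.57 and 0.33, rho = 0.48 and 0.36). Alox15 followed the mast cell and basophil markers as well, with a higher rho than for eosinophil markers (r = 0.60, rho = 0.63, permutation p = 1e-05, adjusted 0.000208 and 0.00026). In that list Fcer1a, Tpsb2, Cma1, Mcpt8, Mcpt4 and Ms4a2 had means from 2.75 to 3.94, low in the range. Only Cpa3 and Hdc were higher, at 5.6 and 7.98. Which genes of the list carried its relation with Alox15 was not tested. Ptgs1 followed the alveolar macrophage markers (r = 0.69, rho = 0.70, permutation p = 1e-05, adjusted 0.000208 and 0.00026) and ran opposite to the endothelial markers (r = -0.66, rho = -0.52, permutation p = 3e-05 and 6e-05, adjusted 0.000446 and 0.000891). Hpgd followed the endothelial markers (r = 0.71, rho = 0.55, permutation p = 1e-05, adjusted 0.000208 and 0.00026). It also followed the alveolar epithelial markers (r = 0.56, rho = 0.45, adjusted permutation p = 0.000693 and 0.00274) and ran opposite to the eosinophil markers (r = -0.60, rho = -0.48, adjusted permutation p = 0.00253 and 0.00295). Without the 2 farthest mice, Hpgd had 0.57, 0.47 and -0.47 with these lists. Pla2g4a followed the alveolar macrophage, mast cell and basophil, monocyte, eosinophil and neutrophil markers (r = 0.44 to 0.59, rho = 0.36 to 0.50). Ptgs2 passed with none of the 13 lists, its highest r being 0.32 with the immediate early genes. Without the mouse that lay apart, 21 of the 104 relations passed, 20 of them among the 23. Those lost were Pla2g4a with eosinophil markers (r = 0.42, rho = 0.32), Ptgis with alveolar epithelial markers (r = 0.33, rho = 0.38) and Hpgd with neutrophil markers (r = -0.45, rho = -0.33). Gained was Ptgs2 with the immediate early genes (r = 0.35, rho = 0.41, permutation p = 0.0092 and 0.00133, adjusted 0.0399 and 0.0106). Without it Alox5 and Alox15 had r = 0.66 and 0.62 with eosinophil markers, Alox15 0.58 with mast cell and basophil markers, Ptgs1 0.64 with alveolar macrophage markers and -0.61 with endothelial markers, and Hpgd 0.63 with endothelial markers. All values of a mouse come from its 1 array, so the relations also carry whatever that array or tissue piece shares.

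**Figure D4:**
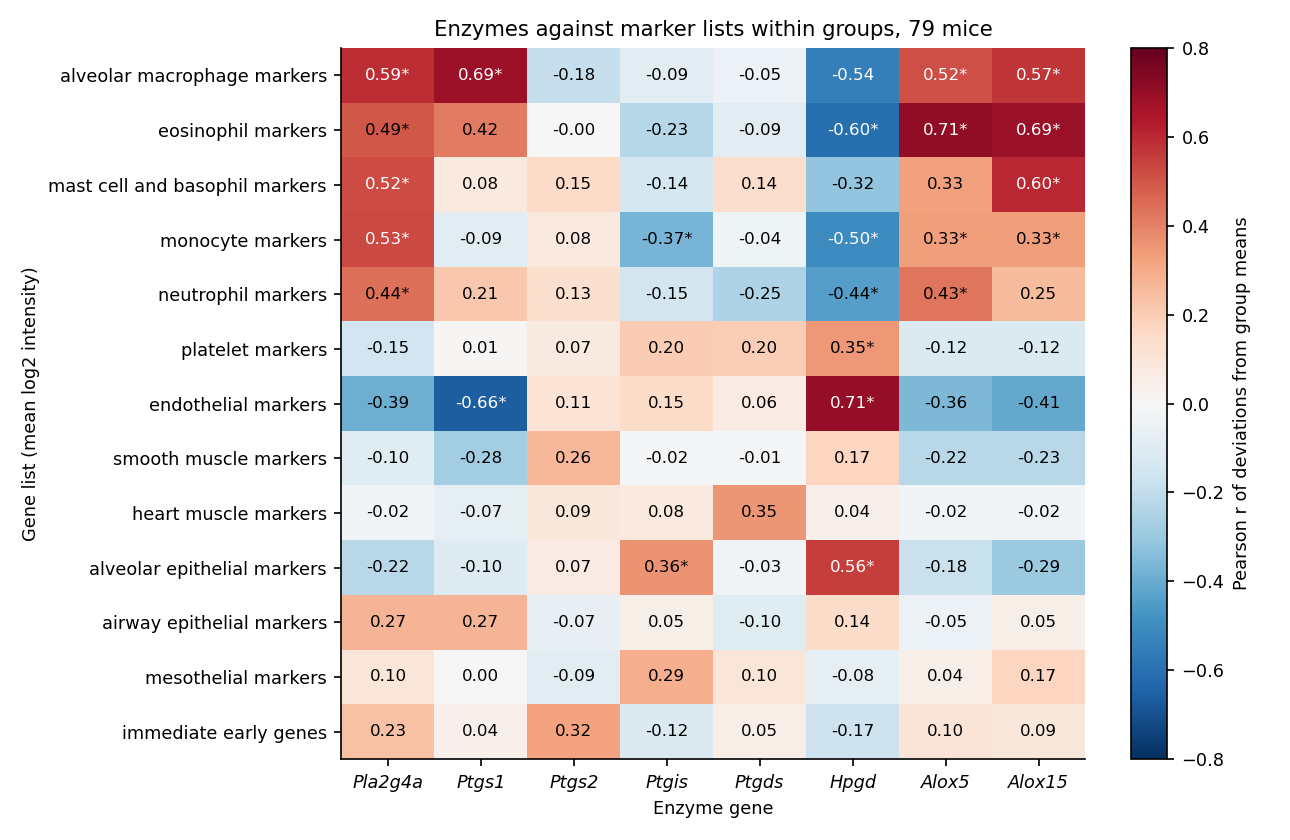
Pearson r of deviations from group means between each enzyme (columns) and the mean log2 intensity of each gene list (rows) over 79 mice, with stars where r and rho both passed the adjusted permutation tests. By r, Alox5 and Alox15 were highest with eosinophil markers, Ptgs1 with alveolar macrophage markers and Hpgd with endothelial markers, and Ptgs2 had no star.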

How the data were processed

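Total RNA from right lung homogenates of 79 mice was hybridised to Affymetrix moGene2.1 arrays. The authors removed 1 mislabelled array, and the deposited values are log2 intensities that the authors made with Affymetrix Expression Console 1.4, Partek 6.6 and RMA (probe sequence correction, quantile normalization, median polish). Quantile normalization gives all arrays about the same distribution, so a shift of the whole transcriptome would not appear. The genome build was not given in the sources used here. Of 31350 entries, 21837 were given a symbol through the study's gene tables or RefSeq and 9513 were not. Groups came from the sample titles. The members and the gene lists were chosen with earlier results of these data known.

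Tests were made with limma 3.58.1 in R 4.3.3 on the deposited log2 values, with no filter on low values: an additive model of exposure, genotype and sex terms for each duration, both exposure interactions together, and exposure by duration over all mice. The Benjamini-Hochberg adjustment ran over all entries, with calls at an adjusted p below 0.05. The 1.3-fold rule is 0.379 on the log2 scale. Differences were also tested within groups by exact permutation, and correlations of deviations from group means by 1e+05 permutations, with scipy 1.17.1. The scripts were tested on simulated data. The rule for named genes took the enzymes, the role-list genes called with the 1.3-fold rule for exposure or genotype, the 5 genes most like Ptgs2, Scnn1b, and markers where a list is described. The other role-list genes called for exposure or genotype were named after their values were seen. Alternatives were an ordinary linear model, array centring, quantile normalization, removal of the lowest 30% of entries, 1 entry per symbol, array weights, a trended robust prior, 1 fit over all mice, a replicate block, the other Ptgs1 entry and leaving out each mouse. The relations between enzymes and of enzymes with markers were repeated without 1 mouse, chosen after seeing the data. Replicate numbers were not taken as pairs of mice. The sample titles name no litter or exposure run, so the main fits treated mice as independent although littermates were used. Ptges and Alox12 were left out for want of a mapped entry.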

Additional observations from a re-analysis of the deposited data

Results flagged for a closer look

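Of 128 sets of values (8 enzymes in 16 groups), 13 held 1 mouse whose distance from the next was a large share of the range of its group. Chance marks about 1 in 20 such sets.

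A βENaC smoke female of 5 days (replicate 3) was marked for 4 enzymes. It had the highest Ptgs1 (9.81), Alox5 (7.79) and Alox15 (8.42) and the lowest Hpgd (11.23) of its group. The other mice of its group had 8.98 to 9.20 for Ptgs1, 7.02 to 7.22 for Alox5, 6.04 to 6.54 for Alox15 and 11.91 to 11.99 for Hpgd. Its endothelial markers averaged 9.89 against 10.19 to 10.36. The part of these markers was not tested.

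Alox15 was also highest in a βENaC smoke male of 1 day (replicate 5, 8.12) and a WT smoke female of 1 day (replicate 5, 6.71). The highest Ptgs1 value of the WT smoke females of 5 days was 10.13 (replicate 2). Ptgs2 was lowest in a WT sham male of 5 days (replicate 4, 7.12), and Ptgis was highest in another mouse of that group (replicate 1, 8.31). Pla2g4a was lowest in a βENaC smoke female of 1 day (replicate 2, 7.21) and in a WT sham female of 5 days (replicate 2, 7.33). Ptgds was highest in a βENaC smoke female (replicate 5, 3.65) and a WT smoke female (replicate 3, 4.09), both of 5 days.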

How the results depend on the processing

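With the 1.3-fold rule, the enzymes called fell to 1 for exposure at 1 day, 1 for exposure at 5 days, 1 for sex at 1 day, 3 for genotype at 1 day and 2 for genotype at 5 days. For sex no share of all entries is given with this rule. For exposure by duration, 1 enzyme (Ptgs2) was called with array weights, with genotype and sex added, and with adjustment over exposure-response genes, against 0 otherwise. The exposure-response genes were themselves selected from these data. With arrays centred on their medians, 8 pairs of enzymes passed the correlation tests in place of 4. Without the mouse that lay apart, a choice made after seeing the data, 3 pairs and 21 of 104 relations with marker lists passed, in place of 4 and 23. Among the called results, the other Ptgs1 entry reversed the sign for exposure at 1 day (-0.073) and genotype at 5 days (-0.057), and the cause was not tested. For exposure at 5 days, where Ptgs1 was not called, its coefficient ran from -0.069 to 0.13 over 10 settings. Leaving out each mouse gave 4 to 4 enzymes called for exposure at 1 day and 2 to 2 at 5 days, 4 to 4 and 4 to 5 for genotype, 2 to 3 and 0 to 0 for sex (Hpgd at 1 day was added without βENaC sham male replicate 1, limma adjusted p = 0.0403), and 0 to 0 for the interactions and for duration. The replicate block gave 4 and 2 enzymes called for exposure at 1 and 5 days, 4 and 5 for genotype, 2 and 0 for sex, and 0 for the interactions and duration, so it changed no call. Of 38 pairs of mice with the same replicate number, 11 had a correlation of deviations over 0.1 (range -0.28 to 0.43), and 10 correlated best with their own number. Groups of 4 to 6 mice limit the tests within groups. Ptgds lay low in the intensity range and Hpgd near its top.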
